A study of Homo sapiens with 9 samples.

Results

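The Ins5 form of calreticulin (CALR) was compared with the wild-type form in K562 cells. The comparison took the 3 Ins5 arrays against the 3 wild-type arrays and covered 18239 genes, which are all genes of the table represented by a probe set with exactly 1 symbol. The series holds 9 arrays in 3 groups of 3. The third group carried Del52 CALR and entered the fit as a source of spread. K562 is a long-established line from a human leukaemia, and its cells show erythroid and megakaryocytic features.

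All 3 groups were transduced with a CALR construct in retroviral supernatant and selected with magnetic beads for NGFR, a surface receptor. Infection ran over 4 cycles at intervals of 12 h, followed by 36 h of culture, and the labels put the purity of the selected cells above 90%. The wild-type group is therefore not untouched K562: it received a wild-type CALR construct, and the cells' own CALR genes were present in every group. The labels give no promoter, no construct level and no sign that replicates of a group came from separate transductions. All p-values measure the spread between these arrays, which may be technical.

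Calreticulin is a chaperone of the endoplasmic reticulum (ER) that holds newly made glycoproteins until they fold and that stores calcium. Ins5 is a short insertion in the last exon that shifts the reading frame. The new tail lacks the KDEL signal that returns the protein to the ER. Mutant calreticulin is known from myeloproliferative neoplasms, where JAK-STAT signalling is active. Unfolded protein in the ER is sensed by PERK, IRE1 and ATF6, which induce chaperones, degradation factors and the ATF4 programme. The title of the series names the unfolded protein response together with oxidative stress.

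Each probe set has 1 log2 value per array, so a difference of 1 is a doubling, and arrays have no read depth: their number limits the precision. Array medians lay between 3.73 and 3.76. Of the variance, 70.5% lay on the first principal component, which set wild-type replicate 2 (score 0.57) against wild-type replicate 3 (-0.57), with the Ins5 arrays at -0.055, -0.27 and 0.30 between them. Correlations between arrays were at least 0.974 within wild type, at least 0.993 within Ins5 and 0.983 to 0.997 across the groups. The wild-type arrays thus differed from each other more than some did from Ins5 arrays. Defining K562 genes were bright in both groups: the fetal globin HBG1 was at 11.81 to 11.97 in Ins5 and 11.78 to 12.06 in wild type, and the erythroid factor GATA1 at 8.12 to 8.40 and 7.96 to 8.53.

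The transduced gene did not differ between the groups beyond the spread of its brighter probe set. CALR read 7.48, 7.47 and 7.26 in Ins5 and 7.29, 7.67 and 7.73 in wild type. The groups overlapped, with a log2 difference of -0.16 (95% interval -0.48 to 0.16, limma adjusted p = 0.893). Its dimmer probe set read 4.17, 4.20 and 4.47 in Ins5 and 3.90, 4.01 and 3.68 in wild type, so there every Ins5 array was higher. NGFR, the selection marker, read 3.39 to 3.45 in Ins5 and 3.34, 3.33 and 3.42 in wild type. These NGFR and dim CALR readings lie within the 1.54 to 6.52 spanned by antigenomic controls, which are probe sets that match no human sequence. The top of this span is set by 1 control, and the next brightest reached 4.29. Where these probes lie relative to the constructs is not given in the sources used here, so the readings check no label.

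Across all genes, no difference between Ins5 and wild type passed. The limma test with Benjamini-Hochberg adjustment called 0 of 18239 genes (0%), with a smallest adjusted p of 0.373. An unadjusted limma p under 0.05 was reached by 1351 genes, or 7.41%, where 912 would be expected by chance. Of these, 940 (5.15% of all genes) were higher in Ins5 and 411 (2.25%) were lower. The 3 Ins5 arrays did not overlap the 3 wild-type arrays for 2090 genes, or 11.5%. In 1489 of these (8.16%) every Ins5 array was higher, and in 601 (3.3%) every Ins5 array was lower. The mean was higher in Ins5 for 10866 genes (59.6%), and the median log2 difference was 0.020. Centring each array on its median gave 738 higher and 514 lower at that p. Without wild-type replicate 2 there were 997 higher and 605 lower at that p, and without wild-type replicate 3 there were 808 and 551. Without both, the single wild-type array was assumed to vary like the other groups, and 357 were higher and 532 lower, while the median over all genes was 0.030. Among the 9119 genes above the median level, fitted alone, 167 were higher and 162 lower at that p, and 438 were higher and 258 lower without overlap.

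The fit also gave the size of the differences and their intervals. These intervals measure the spread between the arrays, which may be technical, so they set no bound on a difference between separate transductions. Log2 differences ran from -0.82 to 0.57, so 0 genes differed by more than 1. Differences lay between -0.1 and 0.1 for 69.4% of genes and between -0.2 and 0.2 for 93.4%. The 95% interval stayed inside -1 and 1 for 97.5% of genes and inside -0.5 and 0.5 for 83.2%. It reached 1 or beyond, on either side, for 454 genes. Beyond 0.5, 19 genes were lower and 4 were higher in Ins5.

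The excess of higher genes was larger among dim genes. In the dimmest of 5 equal groups of genes by mean level, every Ins5 array was higher for 11.6% and lower for 4.36%. The brightest of the 5 groups had 4.0% and 2.85%. Of the 23 antigenomic controls, 22 had a higher mean in Ins5, with a median difference of 0.027, and 6 were higher in every Ins5 array against 0 lower. These controls carry no transcript, and their part in the excess of dim genes was not tested. Among genes above the median level, gene length also went with direction. Non-overlapping higher genes made up 6.09% of the shortest of 5 groups and 3.78% of the longest, while non-overlapping lower genes made up 1.48% and 3.73%. The median log2 difference went from 0.038 in the shortest group to 0.00065 in the longest.

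**Figure D1:**
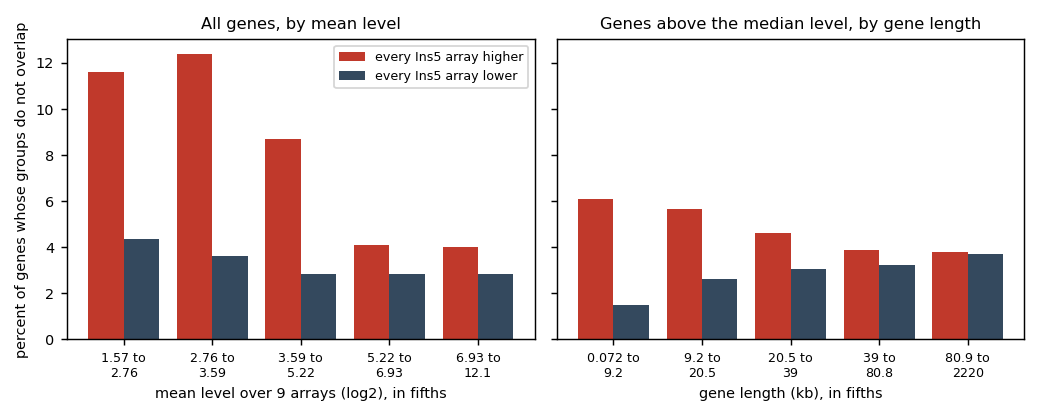
Percent of genes for which every Ins5 array was higher (red) or lower (blue) than every wild-type array, by 5 equal groups of mean log2 level over 9 arrays (all genes, left) and by 5 equal groups of gene length in kb (genes above the median level, right). The higher share falls from 11.6% in the dimmest group to 4.0% in the brightest, and the lower share goes from 1.48% to 3.73% with gene length.

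CACNB1, a beta subunit of voltage-gated calcium channels, had the smallest p of all genes. It read 4.40, 4.50 and 4.45 in Ins5 and 4.10, 4.05 and 4.05 in wild type, with no overlap. The log2 difference was 0.38 (95% interval 0.29 to 0.48, limma unadjusted p = 2.048e-05, adjusted p = 0.373). CACNB1 lies within the antigenomic span, as do 19 of the 24 genes with the smallest p described here in all Ins5 and wild-type arrays. The others are ID1, PRRC1, USP15, SEC23A and SSR1. The upper part of that span rests on 1 control, so lying within it does not make a gene background. The next brightest control reached 4.29, between the wild-type and the Ins5 readings of CACNB1. Of the 3 other CACNB1 probe sets, 2 were also higher in every Ins5 array.

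ID1, which blocks the DNA binding of helix-loop-helix transcription factors, was the brightest of the 12 higher genes with the smallest p. It read 7.99, 8.03 and 7.97 in Ins5 and 7.77, 7.79 and 7.80 in wild type. Every Ins5 array was higher on this and on both other ID1 probe sets, whose log2 differences were 0.19 and 0.25. The difference on the brightest probe set was 0.21 (95% interval 0.12 to 0.30, limma adjusted p = 0.466). SNN, a small membrane protein gene, read 4.35, 4.44 and 4.52 against 4.15, 4.02 and 3.97, and its 3 other probe sets were higher with overlap. TMEM8B differed by 0.24 and the spectrin gene SPTBN4 by 0.29. FUZ, a planar polarity gene needed for cilia, differed by 0.21, and the integrin gene ITGAL by 0.25. The list also held the phosphodiesterase gene GDPD3 (0.26), the potassium channel gene KCND1 (0.32), the kinase gene MAPK7 (0.21) and the odorant receptor genes OR1L1 (0.22) and OR6A2 (0.21). Of these 12 genes, 8 lay below the median level of 4.31.

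Among the 12 lower genes with the smallest p, several encode transcription factors and parts of the secretory pathway, and 2 of the 12 lay below the median level. ZNF436, a zinc finger gene, read 4.71, 4.60 and 4.73 in Ins5 and 5.08, 5.06 and 5.10 in wild type. Its log2 difference was -0.40 (95% interval -0.53 to -0.27, limma adjusted p = 0.466). The other zinc finger genes were ZNF253 (-0.25) and ZNF624 (-0.32). TAF4B, a subunit of the general transcription factor TFIID, differed by -0.38, on both of its probe sets without overlap. RLF, a further zinc finger gene, read 5.43, 5.68 and 5.85 in Ins5 against 6.35, 6.21 and 6.16, a difference of -0.59 (95% interval -0.85 to -0.33). Its other probe set was also lower in every Ins5 array.

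SSR1 and SEC23A were the lower genes that work at the ER. SSR1, a subunit of the complex that assists proteins through the translocon, read 9.41, 9.54 and 9.46 in Ins5 and 9.73, 9.77 and 9.80 in wild type. The groups did not overlap, with a difference of -0.30 (95% interval -0.43 to -0.17, limma adjusted p = 0.466). SSR1 has 7 other probe sets, of which 6 were lower and 5 did not overlap. SEC23A, of the coat that buds vesicles from the ER, read 6.67, 6.80 and 6.74 against 7.19, 7.09 and 6.996. It differed by -0.36 (95% interval -0.51 to -0.20, limma adjusted p = 0.466), and all 3 other probe sets were lower, 1 without overlap. The remaining genes were the cytosolic co-chaperone DNAJB4 (-0.37), the deubiquitinase USP15 (-0.27), PRRC1 (-0.31), the collagen gene COL6A2 (-0.22) and the pseudogene URAHP (-0.23).

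**Figure D2:**
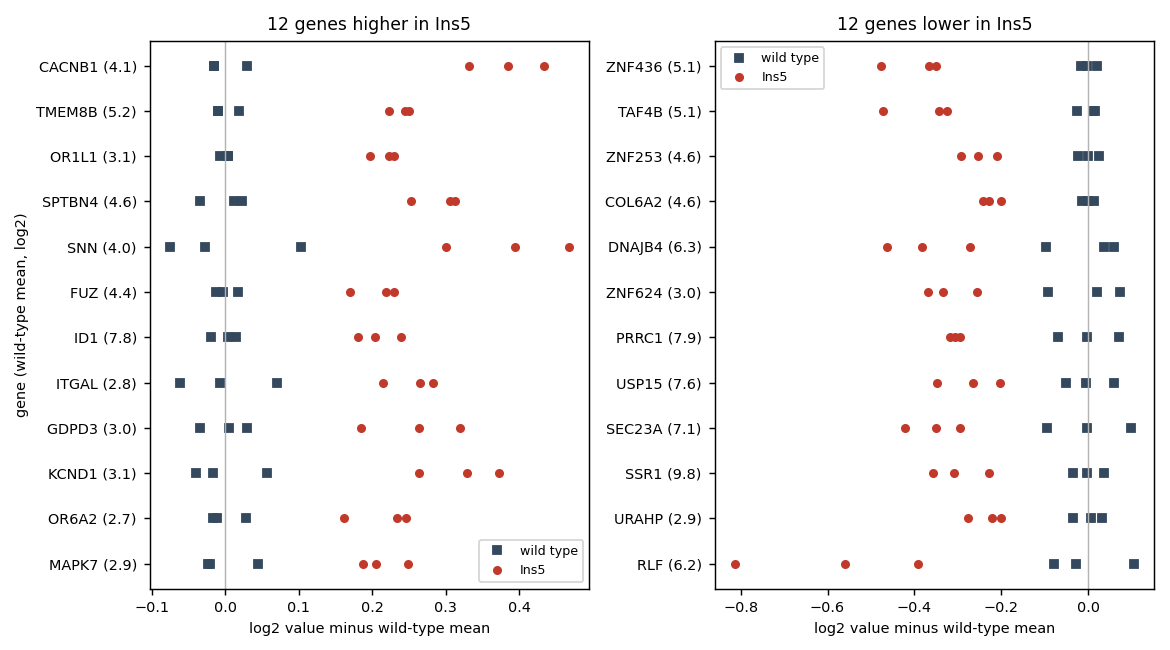
Log2 value of each array minus the wild-type mean, for the 12 higher (left) and 12 lower (right) genes with the smallest unadjusted p among genes whose groups did not overlap. Circles are the 3 Ins5 arrays, squares the 3 wild-type arrays, and the wild-type mean level stands beside each gene. The farthest Ins5 arrays are those of RLF, which differed by -0.59, and CACNB1 differed by 0.38.

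Other probe sets of these 24 genes were also read. Of the 24 genes, 16 had another probe set, and of these 44 probe sets 32 pointed the same way and 17 did so without overlap. Over all genes, 61.3% of 27014 other probe sets pointed the way of the probe set that stood for the gene, and 7.55% did so without overlap. Probe sets of a gene share the same arrays, so they are no further replicates. The 24 genes were chosen on those arrays for small p and no overlap, so their higher agreement is no independent support.

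The largest differences were mostly not the most certain. CCDC186, a gene of dense-core vesicle traffic, was lowest at -0.82 (95% interval -1.36 to -0.28, limma adjusted p = 0.573). It read 3.90, 4.24 and 3.97 in Ins5 and 5.33, 4.46 and 4.78 in wild type, without overlap, and 2 of 4 other probe sets were also lower without overlap. The Golgi gene TMF1 differed by -0.63 and the vesicle coat gene SEC24D by -0.67, both without overlap. The DNA polymerase gene POLK (-0.79) and N4BP2 (-0.63) overlapped. All 5 largest higher differences overlapped: ASS1, which makes argininosuccinate, had 0.57 with an interval from -0.82 to 1.97. SCG3 had 0.53, CGA 0.52, SPN 0.51 and COL15A1 0.48. ASS1 read 8.34, 6.69 and 7.68 in Ins5 and 6.76, 8.09 and 6.14 in wild type, so its spread within groups exceeded the difference.

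Chaperones and folding enzymes of the ER, the genes that unfolded protein induces, were unevenly placed. Of 35 measured members 22 were higher and 13 lower in Ins5, with a median of 0.045 against 0.020 over all genes. Without wild-type replicate 2 the order turned, at 0.0080 against 0.027. An unadjusted limma p under 0.05 was reached by 10 members (28.6%, against 7.41% of all genes), 7 higher and 3 lower, and none passed after adjustment. The list was written with earlier results of these data known, so its count is no independent evidence. Of its members 33 lay above the median level, and in the brightest of the 5 level groups 2.08% were higher and 2.38% lower at that p. Leaving out Ins5 replicate 1, Ins5 replicate 2 or wild-type replicate 1 cut the 7 to 3, and leaving out Ins5 replicate 3 cut it to 4.

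Some promoters of these genes carry the ER stress response element, the motif through which ATF6 acts together with NF-Y. Its letters, CCAAT followed by any 9 bases and CCACG, were searched on both strands in the 250 bases before the gene start, in RefSeq promoters of GRCh38.p14 for the 14492 genes matched by symbol. They were found in 16 promoters (0.110%), of which 7 belong to the 33 promoters of the chaperone list. The windows of 5 of these are shown, because they cover the main chaperones, CALR itself and a member that was lower. Capitals mark the fixed letters of the motif or of its reverse complement, and each window is read 5′ to 3′ on the gene's strand.
HSPA5 (chr9:125241381-125241419, minus strand): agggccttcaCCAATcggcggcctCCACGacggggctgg
HSP90B1 (chr12:103930206-103930349, plus strand): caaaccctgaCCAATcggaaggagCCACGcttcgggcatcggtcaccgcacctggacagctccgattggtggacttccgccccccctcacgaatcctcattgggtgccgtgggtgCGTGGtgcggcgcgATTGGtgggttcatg
CRELD2 (chr22:49918544-49918582, plus strand): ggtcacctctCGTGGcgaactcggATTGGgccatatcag
CALR (chr19:12938374-12938412, plus strand): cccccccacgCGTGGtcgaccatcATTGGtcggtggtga
SERP1 (chr3:150546700-150546738, minus strand): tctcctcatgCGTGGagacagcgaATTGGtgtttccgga

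All 16 genes with the motif had a median log2 difference of 0.018, with 10 higher, near the 0.020 of all genes. The 7 of them in the list had a median of 0.13, and 5 were higher. HSPA5, which encodes the ER's main HSP70 chaperone BiP, read 10.25, 10.07 and 10.11 in Ins5 and 9.85, 10.01 and 10.17 in wild type. The groups overlapped, and the difference of 0.13 had a 95% interval from -0.09 to 0.35. HSP90B1, the ER's HSP90 and the member with 2 copies of the motif, read 11.01, 11.08 and 11.08 against 10.82, 10.93 and 10.99. Every Ins5 array was higher, with a difference of 0.14 (95% interval -0.02 to 0.31, limma unadjusted p = 0.0789). CRELD2, a secreted ER stress gene, differed by 0.23 and CANX, the membrane-bound relative of calreticulin, by 0.022, both with overlap. ERO1B, an ER oxidase, was at 0.23 with an interval from -0.47 to 0.94. SERP1, which protects newly made membrane proteins, was at -0.11, with every Ins5 array lower, and CALR was the other lower gene. A motif match describes the letters in the window and shows no binding.

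HYOU1 had the smallest p among the chaperones. This large HSP70 relative of the ER read 9.08, 9.01 and 9.03 in Ins5 and 8.74, 8.86 and 8.84 in wild type. The groups did not overlap, with a difference of 0.23 (95% interval 0.12 to 0.34, limma adjusted p = 0.466). Of 8 other HYOU1 probe sets 7 were higher, all with overlap. PDIA3, the disulfide isomerase that works with calreticulin, read 9.10, 9.09 and 8.90 against 8.58, 8.73 and 8.93, a difference of 0.28 with overlap. MANF, a secreted factor released on ER calcium loss, read 7.91, 7.92 and 7.87 against 7.28, 7.62 and 7.74, a difference of 0.36 (95% interval 0.03 to 0.68). A further 4 higher members are named after their values were seen. The disulfide isomerase PDIA6 (0.19) and CRELD1 (0.39) did not overlap. The co-chaperone DNAJB11 (0.36) and the glycoprotein glucosyltransferase UGGT2 (0.34) did.

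DNAJB9, an ER co-chaperone that restrains IRE1, was the lowest of the list. It read 6.88, 6.65 and 6.95 in Ins5 and 7.09, 7.48 and 7.25 in wild type, without overlap. The difference was -0.45 (95% interval -0.72 to -0.17, limma adjusted p = 0.521), and 1 of its 2 other probe sets was lower without overlap. LMAN1, a cargo receptor that carries glycoproteins out of the ER, was at -0.35 with overlap and is named after its value was seen. So the chaperones with small p were mostly higher, while the list's co-chaperone of IRE1 and its export receptor were lower. The 3 wild-type arrays and the 3 Del52 arrays give some of these genes these differences in Del52: HYOU1 0.20, PDIA3 0.42, MANF 0.53, HSPA5 0.26 and DNAJB9 -0.60. Of the other members with small p in Ins5, PDIA6 was at 0.22, DNAJB11 at 0.44 and CRELD1 at 0.14 in Del52. LMAN1 was at -0.17 and SERP1 at -0.06. UGGT2, higher in Ins5, was at -0.09 in Del52. Both comparisons use the same wild-type arrays, so they are not independent.

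**Figure D3:**
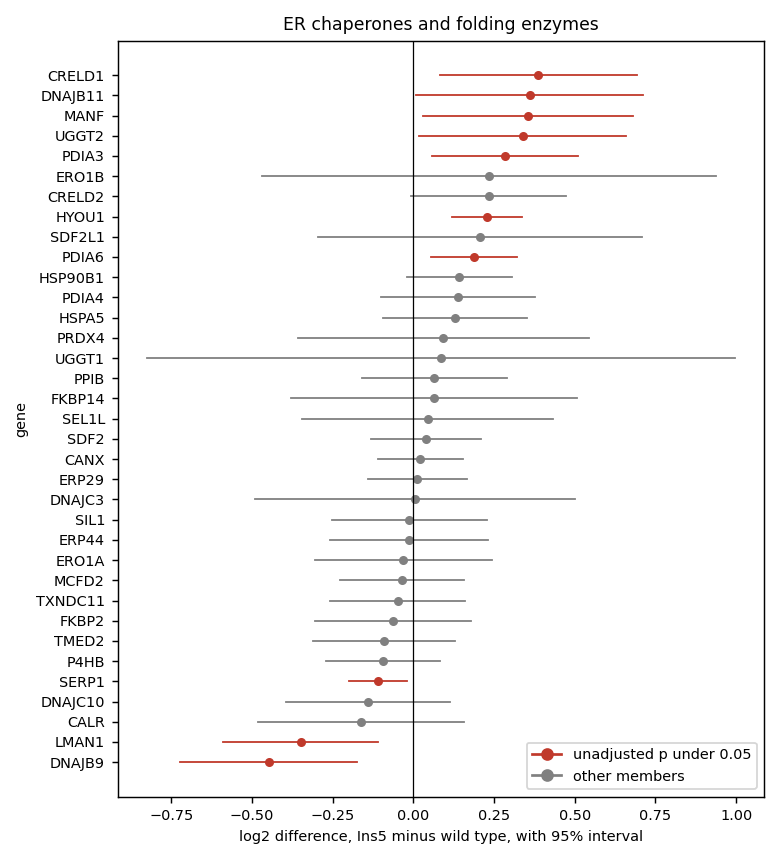
Log2 difference between Ins5 and wild type (positive: higher in Ins5) with its 95% limma interval, for the 35 measured ER chaperones and folding enzymes. Red marks an unadjusted p under 0.05: 7 members lie above 0, up to CRELD1 at 0.39, and 3 lie below, down to DNAJB9 at -0.45.

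The sensors of the unfolded protein response showed small differences in both directions. Of 16 sensors and transducers 10 were higher, with a median of 0.032, which was -0.027 without wild-type replicate 3. EIF2AK3, the gene of the PERK kinase, read 5.77, 5.92 and 5.91 in Ins5 and 6.07, 5.98 and 6.13 in wild type. It was lower in every Ins5 array on this and on both other probe sets, whose differences were -0.22 and -0.43. The brightest probe set differed by -0.19 (95% interval -0.36 to -0.03, limma adjusted p = 0.640). ATF6B, a relative of the ATF6 sensor, read 5.90, 5.79 and 5.90 against 5.65, 5.67 and 5.61, a difference of 0.22 without overlap. Its other probe set did not point the same way. ERN1, the gene of IRE1, was at 0.053, ATF6 at 0.0063 and XBP1, whose message IRE1 splices, at 0.08 with an interval from -0.63 to 0.78. These probe sets do not tell spliced from unspliced XBP1.

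Genes of the ATF4 programme, which the PERK branch uses to adjust amino acid supply, varied more within groups than between them. Of 42 members 27 were higher in Ins5, with a median of 0.057, and 1 had an unadjusted limma p under 0.05. Averaged over the list and set against the wild-type mean, the Ins5 arrays lay at 0.27, 0.07 and -0.23 and the wild-type arrays at 0.14, -0.40 and 0.26. The groups overlapped, and 0 members had groups apart. The list median was -0.066 without Ins5 replicate 1 and -0.10 without wild-type replicate 2. ATF4 itself differed by -0.0021 (95% interval -0.22 to 0.22) and DDIT3, the gene of the death-linked factor CHOP, by -0.08. ASNS, asparagine synthetase, had 0.08 and TRIB3 had 0.06. ATF3, a stress-induced factor, read 8.09, 8.02 and 6.48 in Ins5 and 8.08, 5.74 and 8.96 in wild type, so its interval ran from -2.24 to 2.11. EPRS1, a tRNA synthetase, was the member with the small p, at -0.16.

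Entry into the ER and transport to the Golgi gave more lower than higher members. Of 61 genes 44 were lower in Ins5, with a median of -0.070. An unadjusted limma p under 0.05 was reached by 7 lower members and 1 higher, against 2.25% and 5.15% of all genes. Of its members 59 lay above the median level, and in the brightest of the 5 level groups 2.38% were lower and 2.08% higher at that p. The 7 lower members at that p became 4 without Ins5 replicate 1 and 17 without wild-type replicate 2. Without overlap 7 were lower and 2 higher, against 3.3% and 8.16% of all genes. Set against the wild-type mean, the list averaged -0.10, -0.03 and -0.10 in the Ins5 arrays and 0.00134, -0.05 and 0.05 in the wild-type arrays, so Ins5 replicate 2 lay inside the wild-type range. The list was written with earlier results known. Its median gene length is 28.2 kb against 25.7 kb over all genes.

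The families of this list differed in direction. All 10 genes of the COPII coat, which buds vesicles from the ER, were lower, with a median of -0.14. The 4 genes of the SSR complex had a median of -0.19 and the 4 genes SEC61A1, SEC61B, SEC62 and SEC63 of the translocon a median of -0.18, all lower. So were the 8 genes of the signal recognition particle and its receptor, at -0.068. Wild-type replicate 3 weighed on these values: without it the medians were -0.036 for COPII, with 3 of 10 genes higher, -0.093 for SSR and 0.026 for the signal recognition particle. Of 8 genes of the COPI coat, which returns vesicles to the ER, 7 were lower, with a median of -0.089. Golgi proteins and cargo receptors had 7 of 9 lower. The 2 KDEL receptor genes were lower, with a median of -0.072. All 5 signal peptidase genes were higher, with a median of 0.038, near the 0.020 of all genes, of which 59.6% were higher. All 3 genes of the GET pathway, which inserts tail-anchored proteins, were also higher, at 0.12. In the signal peptidase and GET families 0 genes had an unadjusted limma p under 0.05 and 0 had groups apart. Without wild-type replicate 3 the GET median was 0.032, and without wild-type replicate 1 the signal peptidase median was 0.013, with 3 of 5 genes higher. The ER membrane complex had 6 of 8 genes higher, with a median of 0.068. The families were split by gene name, and no test of their difference was run.

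Members of this list with small p include coat and tether genes. SEC24D, a cargo-binding COPII subunit, read 4.15, 4.42 and 4.43 in Ins5 and 4.93, 4.69 and 5.38 in wild type, a difference of -0.67 without overlap. Its other probe sets were dim, and 1 of 2 was lower without overlap. GOLGA5, a Golgi tether, read 5.20, 5.12 and 5.39 against 5.59, 5.77 and 5.39, a difference of -0.35. Named after their values were seen, SEC24A differed by -0.33 with overlap and the COPI subunit COPB2 by -0.16 without. COPB2 read 7.71, 7.80 and 7.71 in Ins5 and 7.90, 7.89 and 7.91 in wild type. ARF1, the GTPase that recruits COPI, differed by -0.11 without overlap. EMC4, of the ER membrane complex, was the higher member, at 8.97, 9.01 and 9.03 against 8.87, 8.88 and 8.89.

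**Figure D4:**
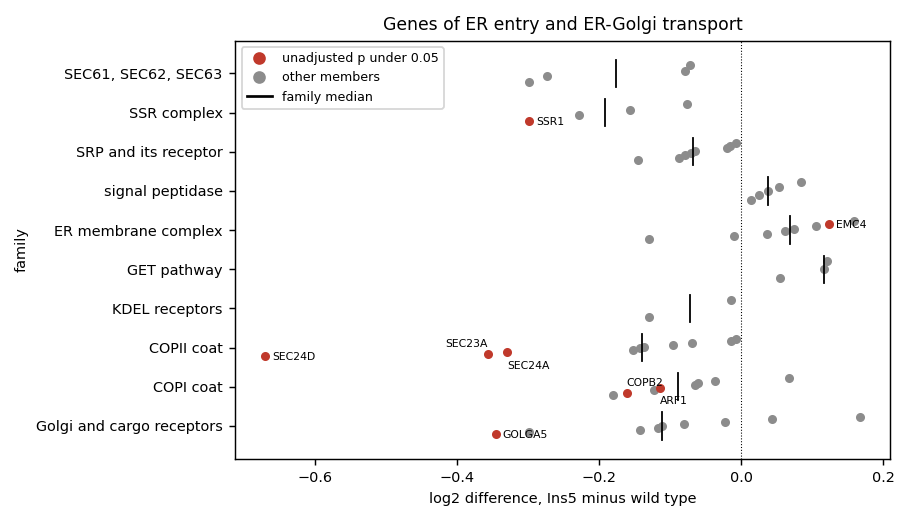
Log2 difference between Ins5 and wild type for each of the 61 measured genes of ER entry and ER-Golgi transport, by family. Red points have an unadjusted limma p under 0.05 and vertical bars are family medians. All 10 COPII genes lie below 0, down to SEC24D at -0.67, and all 5 signal peptidase genes lie above it.

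Among the calcium genes, CACNB1 had the smallest p and the pump of the ER store was also higher. ATP2A2, the SERCA pump that fills the ER store, read 9.76, 9.80 and 9.67 in Ins5 and 9.45, 9.44 and 9.56 in wild type. Every Ins5 array was higher, with a difference of 0.26 (95% interval 0.14 to 0.38, limma adjusted p = 0.466). All 5 other ATP2A2 probe sets were higher, 4 of them without overlap. STIM1, the sensor of the calcium level in the store, read 6.46, 6.38 and 6.31 against 6.22, 6.14 and 6.23, a difference of 0.19 without overlap. Of 45 measured calcium genes 24 were higher, with a median of 0.015, and 5 (11.1%, against 7.41% of all genes) had an unadjusted limma p under 0.05, all higher. The median was -0.0041 without wild-type replicate 2. Beside ATP2A2, STIM1 and CACNB1, these 5 included SDF4 (0.13) and the dim RYR1 (0.08), named after their values were seen. The list was written with earlier results of these data known and holds CACNB1, so its count is no independent evidence. ORAI1, the channel that STIM1 opens, was at -0.10, ITPR3 at -0.02 and the second pump ATP2A3 at 0.34 with an interval from -0.27 to 0.96.

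Glycan synthesis and ER-associated degradation were near the background, and without wild-type replicate 2 their medians were -0.060 and -0.026. Of 32 genes of N-glycan synthesis 17 were higher, with a median of 0.0048, and 1 had an unadjusted limma p under 0.05. That was DDOST, a subunit of the transferase that attaches the glycan, which read 8.93, 9.04 and 9.09 against 9.18, 9.16 and 9.18, a difference of -0.16. ALG2, an early mannosyltransferase, was also lower in every Ins5 array, at -0.32. GANAB, the glucosidase that feeds the calreticulin cycle, was at -0.04 and MOGS at -0.23 with overlap. Of 35 degradation genes 22 were higher, with a median of 0.017 and 0 at an unadjusted limma p under 0.05. The ubiquitin ligase SYVN1 was at 0.026, EDEM1 at 0.08 and HERPUD1 at -0.12 with an interval from -0.63 to 0.38. NPLOC4, a cofactor of the segregase VCP, was higher in every Ins5 array, at 0.16.

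The response to oxidative stress showed little difference. Of 38 genes of the NRF2 pathway 21 were higher, with a median of 0.036, and 3 had an unadjusted limma p under 0.05 (7.89%, near the 7.41% of all genes). The median was -0.011 without wild-type replicate 3. NFE2L2, the gene of NRF2, read 8.97, 8.92 and 8.91 in Ins5 and 9.21, 9.01 and 9.05 in wild type. Every Ins5 array was lower, with a difference of -0.15 (95% interval -0.34 to 0.03). KEAP1, its inhibitor, was at 0.21 with overlap, and BACH1, a repressor of the same target genes, at -0.42 (95% interval -0.76 to -0.08) with overlap. Core targets lay near 0: HMOX1 at 0.05 on a dim probe set, NQO1 at 0.16 with an interval from -0.51 to 0.83, GCLC at -0.04, GCLM at -0.10, TXNRD1 at 0.03 and SRXN1 at 0.06. The transporter gene ABCC2 was at 0.22 and dim, at 2.99 to 3.10 against 2.79 to 2.89. UGDH, named after its value was seen, was at -0.25 without overlap. The antioxidant response element letters TGACNNNGC stood in 8 of 32 promoters of the list and in 11.6% of all promoters, and those 8 genes had a median of 0.015.

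Antioxidant enzymes lay near the background. Of 60 genes 40 were higher, close to the 59.6% of all genes, with a median of 0.026 against 0.020 over all genes. An unadjusted limma p under 0.05 was reached by 2 (3.33%, against 7.41% of all genes), both higher. In 4 every Ins5 array was higher and in 0 lower, against 8.16% and 3.3% of all genes. GPX1, a glutathione peroxidase, read 4.66, 4.56 and 4.77 in Ins5 and 4.37, 4.43 and 4.38 in wild type. The groups did not overlap, with a difference of 0.27 (95% interval 0.12 to 0.42, limma adjusted p = 0.466), and its other probe set was higher with overlap. GSTO2, a glutathione transferase, was at 0.19 without overlap. The dismutases SOD1 and SOD2 were at 0.0068 and 0.017, catalase (CAT) at -0.04, GPX4 at 0.11 and PRDX1 at 0.015. OXR1, which protects against oxidative damage, read 6.98, 7.05 and 7.11 against 7.48, 7.13 and 7.07 on its brightest probe set. That difference of -0.18 overlapped, while both dimmer OXR1 probe sets were lower without overlap, at -0.38 and -0.39.

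Proteasome subunits and class I antigen presentation leaned higher by small amounts. Of 42 proteasome genes 34 were higher, with a median of 0.033 (22 and 0.017 without wild-type replicate 3), and PSMB4 was the 1 member with an unadjusted limma p under 0.05. PSMB4 read 9.40, 9.40 and 9.41 against 9.30, 9.30 and 9.26, a difference of 0.12 (95% interval 0.04 to 0.20). Set against the wild-type mean, the list averaged -0.0069, 0.04 and 0.08 in Ins5 and 0.0065, 0.06 and -0.07 in wild type, so the groups overlapped. Of 25 antigen presentation genes 18 were higher, with a median of 0.088. MICB, a stress ligand of natural killer cells, read 7.11, 7.18 and 7.16 against 6.97, 6.95 and 7.05, a difference of 0.16. The peptide-loading gene TAPBP, a partner of calreticulin, was at 0.20, HLA-B at 0.11, TAP1 at 0.13 and B2M at 0.07, all with overlap. Class I genes are near-identical, so their probes may share signal.

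JAK-STAT signalling was followed through its kinases, targets and feedback genes. Of 42 measured genes 30 were higher, with a median of 0.063, and 4 had an unadjusted limma p under 0.05 (9.52%, near the 7.41% of all genes). Beside ID1, these were GFI1, a repressor of blood cell fate (0.23, dim), and, named after their values were seen, the kinase TYK2 (0.18) and the translation inhibitor PDCD4 (-0.25). JAK2 read 4.81, 5.04 and 5.01 in Ins5 and 5.37, 5.25 and 4.83 in wild type, a difference of -0.20 with overlap. STAT5A was at 0.25 and STAT5B at 0.12, with overlap. STAT targets went in no common direction: CISH was at 0.05, SOCS2 at -0.10, SOCS3 at 0.21 and PIM1 at -0.05. BCL2L1, a survival gene, was at 0.20 (95% interval -0.09 to 0.49).

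Growth factor output and lineage genes were placed as follows. MAPK output genes had 22 of 34 higher and a median of 0.027 (-0.024 without Ins5 replicate 1), with EPHA4 at 0.16, DUSP6 at -0.05 and EGR1 at -0.20 with an interval from -1.71 to 1.31. Erythroid genes had 36 of 50 higher and a median of 0.052. Without wild-type replicate 2, 24 were higher and the median was -0.0051, and without Ins5 replicate 2, 26 were higher and it was 0.016. Their members with the smallest p were the dim TSPO2 (0.20) and HBM (0.22), and KLF1 was at 0.06, HBE1 at 0.13 and ALAS2 at 0.09. Megakaryocyte and platelet genes had 36 of 48 higher and a median of 0.061. In 9 of these 48 every Ins5 array was higher and in 0 lower, against 8.16% and 3.3% of all genes, and 21 of the 48 lay above the median level. FLI1, a megakaryocyte transcription factor, read 2.38, 2.37 and 2.46 against 2.31, 2.26 and 2.27, and PF4V1 differed by 0.15. The defining platelet genes PF4 (0.00075), GP1BA (-0.00099) and ITGB3 (0.05) overlapped, and ITGA2B was at 0.17 with an interval from -0.86 to 1.20. An unadjusted limma p under 0.05 was reached by 3 megakaryocyte genes (6.25%, against 7.41% of all genes), all higher. That count of higher genes ranged from 1 to 7 as arrays were left out in turn.

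HDC, which makes histamine, was the highest of 18 genes of mast cells and basophils. It read 3.85, 4.03 and 3.71 in Ins5 and 3.52, 3.22 and 3.72 in wild type. The groups overlapped, with a difference of 0.38 (95% interval 0.07 to 0.68, limma adjusted p = 0.628). HDC was among 7 genes (0.0384% of 18239) that passed when the first principal component entered the fit as a covariate, each with a limma adjusted p of 0.0431. The others were CACNB1 (0.38), the dolichol kinase gene DOLK (0.30) and NISCH (0.30), all higher, and C1orf74 (-0.36), GOLGA5 (-0.35) and ZNF624 (-0.32), all lower. With any 1 of the 9 arrays left out, 0 genes passed in that fit. With each gene's own variance in place of limma's moderated one, 9 genes passed, at differences from -0.22 to 0.38. They were CACNB1, TMEM8B, OR1L1 and COL6A2 above, the odorant receptor gene OR5AR1 (0.17), CRACR2B (0.09), the malic enzyme gene ME2 (0.07), LRRC19 (-0.11) and the myelin gene MOG (-0.16). CRACR2B, whose limma adjusted p was 0.640, read 4.07 in all 3 wild-type arrays and 4.15 to 4.16 in Ins5. Of the other histamine and mast cell genes, FCER1A and PRG3 were at 0.15 and 0.12 and dim, and FCER1A is named after its value was seen.

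Genes of growth and metabolism differed little. The respiratory chain had 60 of 72 genes higher, with a median of 0.035, and in 6 every Ins5 array was higher against 0 lower, where 8.16% and 3.3% of all genes were. NDUFS8, a complex I subunit, was at 8.10, 8.07 and 8.08 against 7.97, 7.92 and 8.01. The count of 60 fell to 42 without wild-type replicate 3 and to 46 without wild-type replicate 2. Cell cycle genes had 36 of 67 lower and a median of -0.0063, and TOP2A, the topoisomerase of dividing cells, read 8.60, 8.95 and 8.88 against 9.31, 8.99 and 8.97. DNA repair had 40 of 70 lower and a median of -0.035, with the Fanconi gene FANCB at -0.32 (95% interval -0.48 to -0.15) and ATM at -0.43 with overlap. Medians were 0.015 for apoptosis regulators, 0.0063 for glycolysis and hypoxia, -0.016 for cholesterol synthesis, -0.0041 for MYC and ribosome biogenesis, -0.0086 for cytosolic heat shock and 0.049 for the interferon response. Of these lists, cholesterol synthesis spread most: its wild-type arrays averaged -0.0059, 0.30 and -0.29 around their mean.

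**Figure D5:**
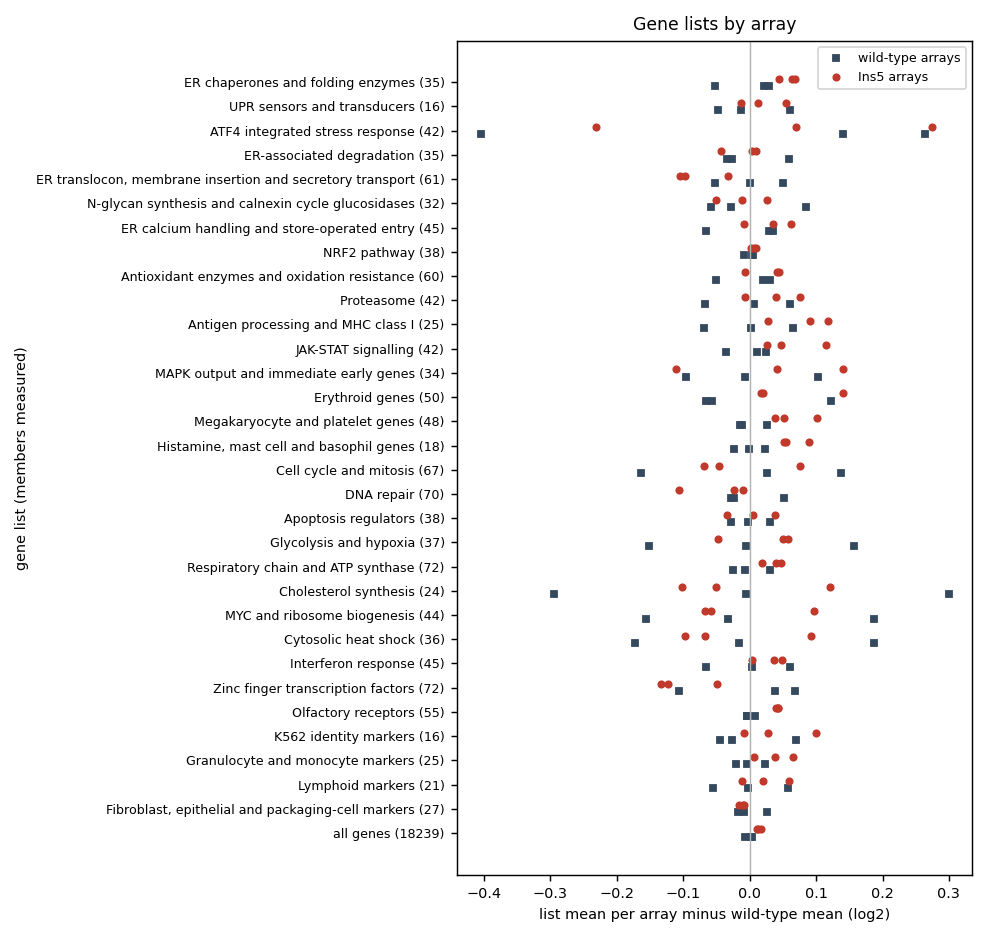
Mean over the members of each gene list in each array, minus the wild-type mean (log2), for Ins5 (circles) and wild-type (squares) arrays, with the number of members measured. The circles lie inside the range of the squares for 9 of 31 lists, partly outside it for 17 and apart from it for 5. The 5 are ER chaperones (Ins5 at 0.04 to 0.07, wild type at -0.05 to 0.03), JAK-STAT signalling, megakaryocyte, mast cell and olfactory receptor genes. All genes together, drawn as a further row, were also apart, at 0.012 to 0.018 in Ins5 and -0.0062 to 0.0035 in wild type.

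Zinc finger genes leaned lower, and olfactory receptor genes lay near the background. Of the 72 zinc finger transcription factors listed and measured, 53 were lower, with a median of -0.068. At an unadjusted limma p under 0.05, 7 were lower and 1 higher, where the shares over all genes were 2.25% and 5.15%. The list was written with earlier results of these data known, so this count is no independent evidence. Set against the wild-type mean, the list averaged -0.12, -0.13 and -0.05 in Ins5 and 0.04, 0.07 and -0.11 in wild type. Ins5 replicate 3 thus lay inside the wild-type range, for this list and for all genes named ZNF. All 495 genes named ZNF included 291 lower (58.8%), where 7373 of all 18239 genes were lower, with a median of -0.033 that was -0.0092 without wild-type replicate 2. At an unadjusted limma p under 0.05, 28 ZNF genes (5.66%) were lower and 14 (2.83%) higher, and these became 54 and 9 without wild-type replicate 3. The 28 lower genes numbered 41 when wild-type replicate 2 was left out, 15 when it was wild-type replicate 1 and 17 when it was Ins5 replicate 1. For the listed genes, the 7 became 14 without wild-type replicate 3 and 4 without Ins5 replicate 2 or without Del52 replicate 2. Of 340 olfactory receptor genes, which K562 cells are not known to use, 213 were higher, 27 (7.94%) at that p against 3 lower (0.882%). In the group of all genes at the same level, from 2.76 to 3.59, the shares were 8.42% and 1.89%. The 27 became 15 without wild-type replicate 1. Their median level was 2.89, within the antigenomic span.

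Markers of other cells were mostly dim. The brightest antigenomic control reached 6.52 and the next brightest 4.29. Of 5 equal groups of all genes by mean level, the third ended at 5.22 and the fourth ran from 5.22 to 6.93. Most genes thus had a mean level below 6.52, so staying below it does not show absence. In all Ins5 and wild-type arrays, 24 of 25 granulocyte and monocyte markers and 20 of 21 lymphoid markers stayed at or below 6.52. So did 22 of 27 fibroblast, epithelial and packaging-cell markers. The exceptions were the lysozyme gene LYZ (0.16), CD3D (0.21), the keratin genes KRT8 (-0.03), KRT18 (0.04) and KRT19 (0.05), EPCAM (0.0039) and CLDN4 (0.07), all with overlap and named after their values were seen. LYZ read 9.78, 9.73 and 9.59 in Ins5 and 9.60, 9.40 and 9.62 in wild type.

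Of the granulocyte and monocyte markers 14 were higher, with a median of 0.0099, and the list averaged 0.0069 to 0.07 in Ins5 and -0.02 to 0.02 in wild type. CD86 read 3.35, 3.30 and 3.48 against 3.06, 3.10 and 3.04, and CD163 differed by 0.19, both without overlap and both within the antigenomic span. Of the lymphoid markers 12 were higher, and CD8A was at 0.23 without overlap. Of the fibroblast, epithelial and packaging-cell markers 17 were higher, with list averages of -0.02 to -0.0088 in Ins5 and -0.02 to 0.03 in wild type. COL6A2 and KRT5 were lower, at -0.22 and -0.17. The part of other cells in the differences was not tested.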

How the data were processed

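Per the labels, biotin-labelled cRNA was hybridised to 9 arrays, 3 for each of 3 CALR forms. RMA and Partek are named per the submitters' processing notes, without versions. The deposited table holds 1 log2 value per probe set and array, made by the authors; the log base was read from the values. Of 49386 probe sets, 45253 carried exactly 1 symbol, and the brightest on average stood for each of 18239 genes. The 4040 probe sets with several symbols or none, tested apart, gave 0 calls by limma, with 293 at an unadjusted p under 0.05. limma 3.58.1 in R 4.3.3 fitted all 9 arrays, with 6 residual degrees of freedom. The Benjamini-Hochberg threshold was 0.05, and intervals are 95%. The fit was tested on simulated data.

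Named genes were CALR, NGFR, the 12 genes per direction with the smallest p among those without overlap, the 5 largest differences per direction, the 2 smallest p and marked core genes of each of 32 lists (1274 of 1363 entries measured), and genes called by an alternative with 10 calls or fewer. The comparison, members and lists were chosen with earlier results of these data known. Alternatives covered normalization, filters, probe set choice, variance model, blocking and left-out arrays.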

Additional observations from a re-analysis of the deposited data

How the results depend on the processing

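The count of 0 genes passing limma's adjusted threshold held under normalization, centring, probe set choice, intensity trend, the level filter, the 6 arrays alone, the block and each left-out array, and also at adjusted p thresholds of 0.1 and 0.01. It did not hold under 3 alternatives: estimated array weights gave 4017, unmoderated variances gave 9 and the first principal component as a covariate gave 7. The weights did not converge, and gave wild-type replicate 1 a weight of 67 against 0.237 and 0.285 for the other wild-type arrays. The genes at an unadjusted p under 0.05, 1351 in all, were 329 of the 9119 genes above the median level and 3354 of 45253 probe sets. They were 6677 with array weights, 3468 with the principal component and 889 without wild-type replicates 2 and 3 together. Leaving out each array in turn gave 920 to 1602, with 0 passing each time. With the replicate number as a block, 0 passed and 386 were at an unadjusted p under 0.05; same-numbered Ins5 and wild-type arrays share only a number, since their deviations correlated at -0.328, -0.889 and -0.899. Of 215 named genes, 73 had an unadjusted p under 0.05 and 0 of these changed sign in up to 21 alternatives. Many of the 73 were named for their small p, and several alternatives leave the difference itself unchanged. This 0 is therefore no evidence of stability. At least 1 alternative changed the sign of 89 of the 215 genes and of the medians of 18 of 32 lists. The cause of these changes was not tested.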
